A study of Homo sapiens and Mus musculus with 92 samples.

Results

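MLLT3, MLLT1, MLLT10, MLLT6, DOT1L, AFF1, AFF4, ELL, ELL2 and EAF1 encode AF9, its paralog ENL and proteins that assemble with them, either in the super elongation complex (SEC) or in the DOT1L complex. These 10 genes were picked by symbol from the 28103 genes that both RNA-seq count tables of the study list. The RNA-seq had been performed to find genes regulated by MLL1 and by AF9 in HEL cells, an established human erythroleukemic line in which MLL1 is not rearranged. One experiment holds 3 libraries of control cells and 3 of MLL1 knockdown (KD) cells, which carry MLL1 shRNA #1, and the other holds 2 libraries of AF9 KD cells, which carry AF9 shRNA #1, with 2 of control cells. Each experiment had its own control cells, whose genotype the labels give as WT, while the methods describe transduction with a control shRNA vector. Every KD rests on 1 lentiviral shRNA, and the labels number the replicates without saying whether they came from separate cultures, so that p values measure the spread between these libraries. Total counts were 6966345 to 10380241 in the MLL1 experiment and 12278989 to 14232408 in the AF9 experiment, and the 10 genes had 147 to 7545 counts per library.

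AF9 and ENL carry an N-terminal YEATS domain that reads acylated lysines of histone H3, and a C-terminal domain that holds 1 partner at a time. Through that domain they join either an AF4 family scaffold (AFF1 or AFF4), which gathers the elongation factors ELL or ELL2, their partners EAF1 or EAF2 and the kinase P-TEFb into the SEC, or DOT1L, the methyltransferase of H3 lysine 79, which also binds AF10 (MLLT10) or AF17 (MLLT6). P-TEFb in the SEC releases paused RNA polymerase II. In leukemias with a rearranged MLL1 gene, AF9, ENL, AF10, AF17, AFF1 and ELL are found fused to the N-terminal part of MLL1.

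The target of AF9 shRNA #1, as the oligo list of the study gives it, is shown first because the shRNA defines the AF9 KD cells, and the closest stretches in MLLT1, EAF1 and EAF2 are shown because the results turn on these genes. All are on hg38 and are written 5′ to 3′ on the strand of the transcript, with bases that differ from the shRNA target in capitals. The MLLT3 site is in exon 5 of 11, coding, at chr9:20414247-20414267 (minus strand), the MLLT1 stretch is in exon 6 of 12, coding, at chr19:6222638-6222658 (minus strand), the EAF1 stretch joins the coding ends of exons 5 and 6 of 6, from 15436564 to 15439117 of chromosome 3 (plus strand), and the EAF2 stretch is in exon 3 of 6, coding, at chr3:121854711-121854731 (plus strand).
MLLT3: ttcaaagcctcacaaattaat
MLLT1: CtcCaagccAcacaaGGtGaC
EAF1: tGAaCaCcctcaGaaatGaCt
EAF2: ttcaaagGTtcaAaaaAACCt
MLLT1, EAF1 and EAF2 each had 7 mismatches at best, the other members other than MLLT3 had 7 to 9, and an exact match was found in MLLT3 and in no other annotated gene. The letters aaattaa, which pair with positions 2 to 8 of the shRNA guide strand, occur 4 times in the 3′ UTR of MLLT3, 3 times each in those of AFF1 and AFF4, 1 time each in those of MLLT10, ELL2 and EAF2, and in none of those of EAF1, MLLT1, MLLT6, DOT1L and ELL, while 29.0% of the 11639 tested genes with a 3′ UTR hold them. The target of MLL1 shRNA #1 (gcactgttaaacattccactt) lies in exon 3 of 36 of KMT2A, the gene of MLL1, at chr11:118474149-118474169 (plus strand, coding), and also in an annotated readthrough gene that overlaps KMT2A. The closest stretch to it in any of the 10 genes had 6 mismatches.

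Libraries were checked before the comparisons were made. All 8 erythroid markers and all 4 megakaryocyte markers reached at least 1 TPM (transcripts scaled by exon length and library size) in every library. Of 8 markers of other cell types, 7 stayed under 1 TPM in control cells and in AF9 KD cells. LYZ was at 211 to 231 TPM in control cells of the AF9 experiment and at 169 to 193 TPM in AF9 KD cells. In the MLL1 experiment it was at 41.6 to 48.6 TPM in control cells and at 27.3 to 40.9 TPM in MLL1 KD cells. COL1A1 also reached 1 TPM in MLL1 KD replicate 3 alone, at 3.78 TPM. In the MLL1 experiment replicate 1 of both groups stood apart, as its counts differed from those of replicates 2 and 3 of its group with a chi-square of 30.0 to 57.7 per degree of freedom, against 2.35 and 2.64 between replicates 2 and 3. Values are CPM (counts scaled by library size) corrected with TMM factors within an experiment and come from bulk RNA, so that fewer cells with a transcript and less of it per cell cannot be told apart, and neither can a change of 1 gene be separated from a change in total RNA per cell.

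AF9 KD cells had less mRNA of MLLT3, the targeted gene, and of EAF1, which encodes a partner of the ELL proteins. These 2 of the 10 genes were called, which took a 1.5-fold change or more together with adjusted p values under 0.05 (edgeR quasi-likelihood test, Benjamini-Hochberg adjustment over 13331 genes), and both were lower. Of all genes tested 13.1% were called, 5.06% lower and 8.02% higher, and 29.0% passed the adjusted p value alone, as 4 of the 10 genes did. Leaving aside MLLT3, the target of the shRNA, 1 of 9 genes was called, a share near that of all genes. MLLT3 was at 548 and 528 CPM in the control replicates and at 107 and 92.6 CPM in AF9 KD replicates 1 and 2, far apart from the controls. AF9 KD cells thus held 18.6% of the control level (log2 fold change -2.43, SE 0.11, adjusted p = 3.2e-08 from edgeR).

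EAF1 was at 71.2 and 72.4 CPM in the control replicates and at 37.7 and 39.5 CPM in the AF9 KD replicates. Both KD libraries thus lay far below both control libraries. The control mean of 71.8 ± 0.841 CPM (SD, n = 2) compared with 38.6 ± 1.30 CPM in AF9 KD cells (SD, n = 2), 53.8% of control, with a log2 fold change of -0.89 (SE 0.10, 95% interval -1.12 to -0.67, adjusted p = 8.1e-05 from edgeR). EAF1 was called under every alternative tried for AF9 KD, with adjusted p values of at most 0.00064 and log2 fold changes of -0.92 to -0.86 with 1 library left out. With 2 against 2 libraries p = 0.333 is the smallest two-sided value of an exact permutation test, and EAF1 gave that value.

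**Figure D1:**
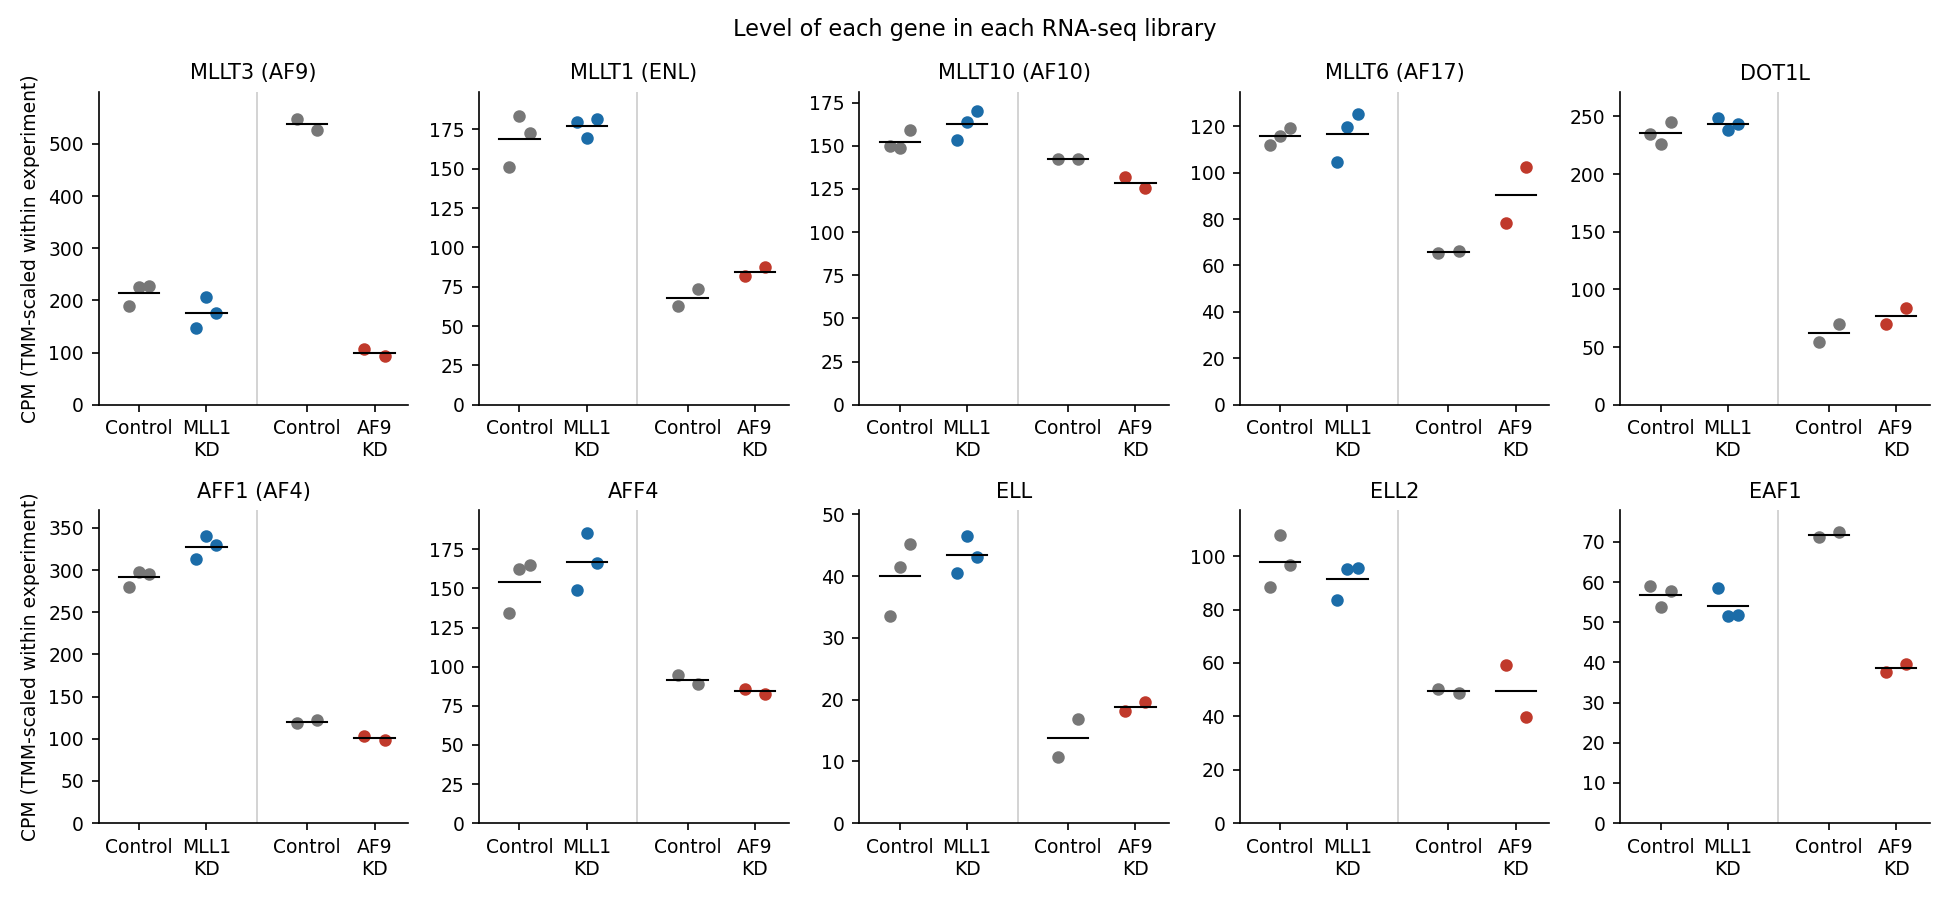
CPM of each of the 10 genes in each library, with 1 point per library, a line at the group mean, a separate linear axis from 0 for each gene, and the MLL1 experiment left and the AF9 experiment right of the grey line. MLLT3 and EAF1 fell in AF9 KD cells, and in MLL1 KD cells the libraries overlapped those of control cells for 9 of the 10 genes, AFF1 being the exception.

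ENL, which can take the place of AF9 in both complexes, was measured at 62.7 and 73.6 CPM of its gene MLLT1 in control cells and at 81.8 and 87.2 CPM in AF9 KD cells. Both KD libraries were above both control libraries, as for 32.8% of tested genes, but the log2 fold change of 0.31 (95% interval 0.09 to 0.54, adjusted p = 0.040 from edgeR) was under the 1.5-fold threshold. Its sign turned when the trend of each library with exon GC content was taken out (log2 fold change -0.26, adjusted p = 0.037 from edgeR), so no direction is given for MLLT1.

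Among the DOT1L complex genes, MLLT6 passed the adjusted p value alone. It was at 65.2 and 66.1 CPM in control cells and at 78.1 and 103 CPM in AF9 KD cells, with a log2 fold change of 0.46 (SE 0.12, adjusted p = 0.012 from edgeR), under the 1.5-fold threshold. The AF9 KD replicates of MLLT6 were unlike each other, and without replicate 1 the log2 fold change was 0.65 and the gene was called, while without replicate 2 it was 0.26. With GC content offsets MLLT6 was at 0.22 and no longer passed (adjusted p = 0.11 from edgeR). DOT1L itself was at 54.3 and 70.2 CPM in control cells and at 69.8 and 84.1 CPM in AF9 KD cells, and the libraries overlapped (log2 fold change 0.31, adjusted p = 0.091 from edgeR). Without control replicate 1 the value for DOT1L was 0.13, without control replicate 2 it was 0.50, and without AF9 KD replicate 2 it was 0.17. MLLT10 was nearly even, with 143 and 143 CPM against 132 and 125 CPM (log2 fold change -0.15, 95% interval -0.34 to 0.05).

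The AF4 family scaffolds differed little. AFF1 was at 118 and 122 CPM in control cells and at 104 and 98.9 CPM in AF9 KD cells, with a log2 fold change of -0.25 (95% interval -0.44 to -0.05, adjusted p = 0.062 from edgeR). AFF4, the other scaffold, was at 94.6 and 88.9 CPM against 85.6 and 82.8 CPM (log2 fold change -0.12, 95% interval -0.33 to 0.08). For both genes the AF9 KD libraries were the lower ones, without overlap, as they were for 33.2% of all tested genes.

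ELL and ELL2, the elongation factors whose partner is EAF1, showed large spread between replicates. ELL, the member with the fewest counts, was at 10.7 and 16.9 CPM in control cells and at 18.1 and 19.6 CPM in AF9 KD cells (log2 fold change 0.46, 95% interval 0.05 to 0.87, adjusted p = 0.083 from edgeR). This value turned on 1 library. Without control replicate 2 the log2 fold change was 0.82 and ELL was called, and without control replicate 1 it was 0.16. ELL2 was at 50.1 and 48.7 CPM in control cells, and the AF9 KD replicates lay on either side of these, at 59.2 and 39.6 CPM. Of the 31-base stretches of the ELL2 transcript, 12.1% occur in other annotated genes, chiefly the pseudogene ELL2P1, so reads could have been shared there.

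Fold changes in the AF9 experiment went with base composition. Across 13042 genes with a known GC content (genes do not count as independent replicates), log2 fold changes had a Spearman correlation of 0.48 with the GC content of the exons, and of 0.01 after the trend was taken out as an offset in the fit. The 4 members with exons above 50% GC (MLLT6, ELL, DOT1L and MLLT1, at 57.0, 59.5, 62.8 and 63.8%) had log2 fold changes of 0.31 to 0.46 without the offsets and of -0.26 to 0.22 with them. MLLT3 at 38.3% GC and EAF1 at 45.0% GC moved less, to -2.24 and -0.80, and both remained called. With the offsets 7.97% of tested genes were called and 26.4% passed the adjusted p value alone. The part of base composition in the values of the 4 GC-rich members was not tested.

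**Figure D2:**
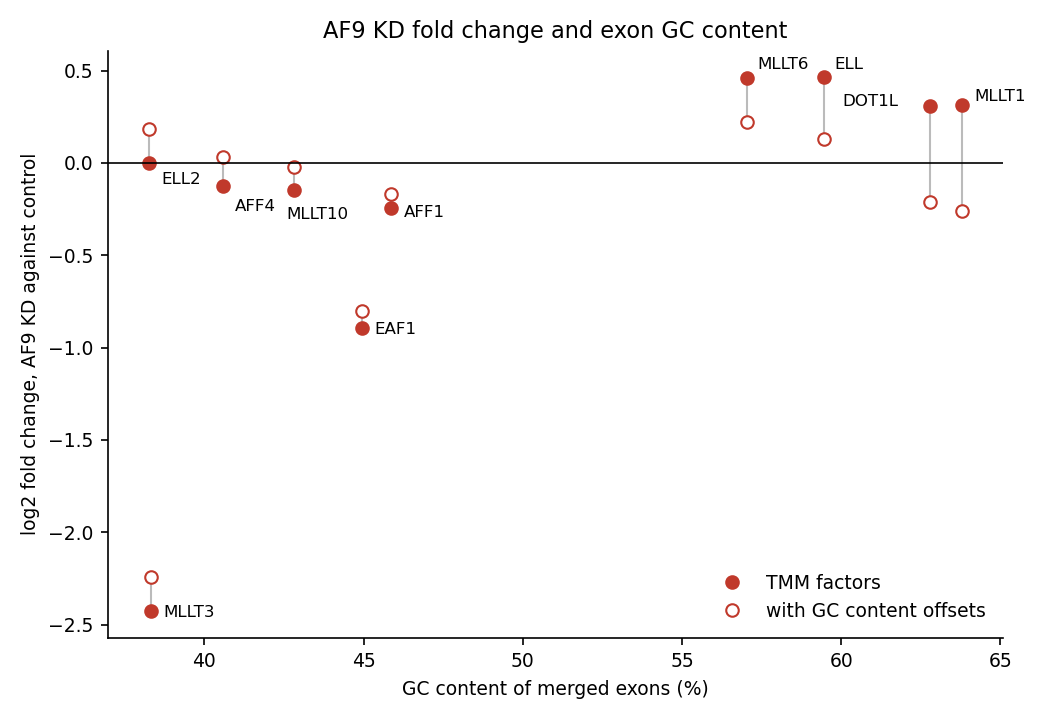
Log2 fold change of each of the 10 genes in AF9 KD cells against the GC content of its merged exons in percent, with filled points from TMM factors alone and open points after GC content offsets. MLLT3 and EAF1 stay at -2.24 and -0.80 with offsets, while MLLT1 and DOT1L pass from above to below 0.

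In MLL1 KD cells none of the 10 genes was called, where 9 of the 14393 tested genes (0.0625%) were, and 1435 (9.97%) had an unadjusted p value under 0.05. KMT2A, the targeted gene, was lower in every MLL1 KD library, at 813 to 835 CPM against 1258 to 1323 CPM in control cells (63.5% of control, log2 fold change -0.66, adjusted p = 0.072 from edgeR, and 3.5e-07 with the replicate number as a block). Among the 10 genes MLLT3 had the lowest log2 fold change, at -0.28 (95% interval -0.64 to 0.08, adjusted p = 0.62 from edgeR), and AFF1 the highest, at 0.17 (95% interval -0.06 to 0.40, adjusted p = 0.66 from edgeR). The remaining 8 lay between -0.10 and 0.12. DESeq2 on the same genes called none of the 10 either. KMT2A was also lower in both AF9 KD libraries, at 373 and 373 CPM against 475 and 455 CPM, as were 33.2% of tested genes. Its log2 fold change there was -0.32 (adjusted p = 0.020 from edgeR), and -0.21 with GC content offsets (adjusted p = 0.066 from edgeR). Of the 31-base stretches of the KMT2A transcript, 21.8% occur in other annotated genes, chiefly the overlapping readthrough gene.

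MLLT3 was at 189, 227 and 228 CPM in control replicates 1, 2 and 3, and at 147, 206 and 176 CPM in MLL1 KD replicates 1, 2 and 3. The KD library was the lower one in each of the 3 pairs, although the groups overlapped because replicate 1 of control cells was low. With the replicate number as a block the log2 fold change of MLLT3 was -0.29 with an adjusted p value of 0.018 (edgeR), and from replicates 2 and 3 alone, a choice made after seeing the data, it was -0.26 with an adjusted p value of 0.00052. Without MLL1 KD replicate 1 alone MLLT3 was at -0.17 (adjusted p = 0.59 from edgeR), and without MLL1 KD replicate 2 it was at -0.41 (adjusted p = 0.67 from edgeR). All are under 1.5-fold, and with the block 13.6% of tested genes had an adjusted p value under 0.05 and 4.72% were called. For replicates 2 and 3 alone the share of all tested genes that passed is not given here, so MLLT3 cannot be set against it.

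AFF1 was the member whose MLL1 KD libraries all lay above the control libraries, at 313, 341 and 329 CPM against 280, 298 and 296 CPM in replicates 1, 2 and 3, as 8.64% of tested genes did. The exact permutation test (two-sided) gave p = 0.1, the smallest that 3 against 3 libraries allow, and with the block the adjusted p value from edgeR was 0.11. From replicates 2 and 3 alone it was 0.013, at a log2 fold change of 0.17. The share of all tested genes that passed in that fit is not given here either. EAF1, which fell in AF9 KD cells, was at 59.0, 53.9 and 57.8 CPM in control cells and at 58.5, 51.7 and 51.7 CPM in MLL1 KD cells (log2 fold change -0.08, 95% interval -0.37 to 0.22). A fall of the size seen in AF9 KD cells lies outside that interval.

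**Figure D3:**
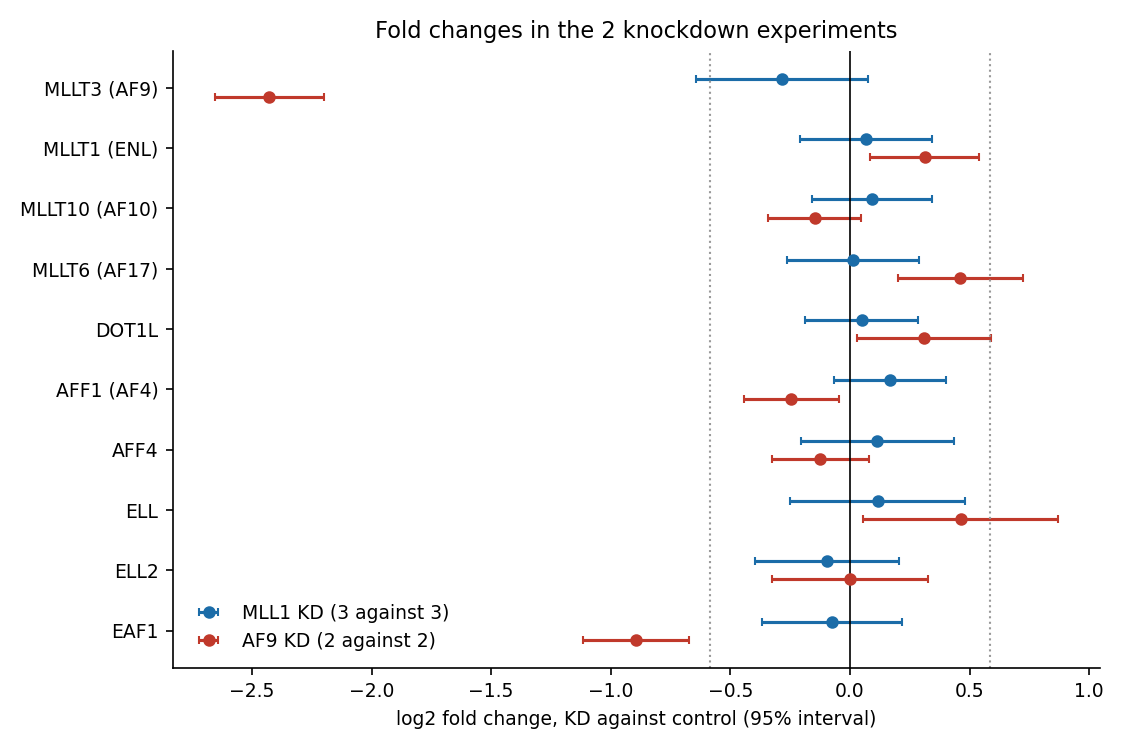
Log2 fold changes of the 10 genes in MLL1 KD (blue) and AF9 KD (red) cells against their own control cells, with 95% intervals from the edgeR fit and dotted lines at a fold change of 1.5 in either direction. The intervals of MLLT3 and EAF1 in AF9 KD lie wholly beyond the dotted line.

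To learn whether the 2 KDs differed in their effects, the difference of the log2 fold changes (AF9 KD minus MLL1 KD) was tested in 1 fit over the 10 libraries, in which 1.35% of 12729 genes were called. MLLT3 and EAF1 were called, with differences of -2.16 (SE 0.22, adjusted p = 0.0069 from edgeR) and -0.84 (SE 0.17, adjusted p = 0.046 from edgeR). The call for EAF1 is close to the threshold and was lost in 9 of the 10 fits that left out 1 library, with adjusted p values of up to 0.27, and with GC content offsets (adjusted p = 0.074 from edgeR), at differences of -0.87 to -0.74 in these fits. MLLT3 lost its call without control replicate 1 of the AF9 experiment (adjusted p = 0.077 from edgeR) and without AF9 KD replicate 2 (adjusted p = 0.061 from edgeR), at differences of -2.13 and -2.04. The next lowest difference was that of AFF1, at -0.43 (95% interval -0.74 to -0.12, adjusted p = 0.15 from edgeR), and the highest was that of MLLT6, at 0.43 (adjusted p = 0.29 from edgeR). Shares of all genes called moved to 0.409% with GC content offsets and to 15.3% with the replicate block, under which the adjusted p value of EAF1 was 0.00051. EAF1 was also not called with total counts, and without a filter beyond 1 count 1 of the 10 genes was called.

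Levels of different genes were compared per length, as TPM, with the merged exons of all annotated transcripts as the length. This length exceeds that of the longest transcript unevenly, at 13576 against 7839 bases for MLLT6 and 4909 against 4447 bases for EAF1. Orders of genes and shares of paralogs therefore depend on the length chosen, and those from the longest transcript are not given here. In control cells of the AF9 experiment MLLT3 stood at the top with 283 ± 10.3 TPM (SD, n = 2), followed by MLLT10 with 66.4 ± 0.647 TPM and by EAF1 and MLLT1 with 62.2 ± 0.155 and 60.8 ± 6.30 TPM, which did not differ beyond their spread. AFF1, AFF4 and ELL2 came after these with 46.6, 34.6 and 29.6 TPM. ELL was lowest there with 11.9 ± 3.68 TPM, below MLLT6 with 20.6 TPM and DOT1L with 23.0 ± 3.96 TPM, and the last 2 did not differ beyond their spread. In AF9 KD cells MLLT3 fell to 56.7 ± 5.10 TPM, under MLLT1 at 81.3 ± 4.84 TPM and MLLT10 at 64.6 ± 1.38 TPM. This order depends on base composition, as the folds fitted with GC content offsets, applied to the control levels, put MLLT10 first at 65.4 TPM, MLLT3 at 59.9 TPM and MLLT1 at 50.7 TPM. EAF1 was there at 36.1 ± 1.73 TPM, and EAF1, AFF4, ELL2, DOT1L and MLLT6 formed a run of neighbours from 36.1 to 30.5 TPM in which no gene differed from the next beyond their spread, while ELL was lowest at 17.6 ± 1.24 TPM.

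The order was another in the MLL1 experiment. MLLT1 was highest in its control cells, with 137 ± 9.69 TPM (SD, n = 3), and AFF1 and MLLT3 came next with 103 ± 0.577 and 102 ± 7.98 TPM, which did not differ beyond their spread. DOT1L followed with 79.0 ± 4.10 TPM, MLLT10 with 64.4 ± 2.59 TPM and ELL2 with 53.0 ± 4.01 TPM, and AFF4 at 52.6 ± 4.42 TPM did not differ from ELL2 beyond its spread. EAF1 was at 44.8 ± 3.20 TPM, and MLLT6 and ELL were lowest, at 32.8 ± 0.648 and 31.3 ± 3.97 TPM. In MLL1 KD cells MLLT1 was highest, at 145 ± 7.40 TPM, and MLLT3 at 84.6 ± 12.6 TPM and DOT1L at 82.4 ± 4.08 TPM did not differ beyond their spread.

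AF9 made up most of the AF9 and ENL mRNA in one set of control cells and less than ENL in the other. The share of MLLT3 in the summed TPM of MLLT3 and MLLT1 was 83.8 and 80.9% in control replicates of the AF9 experiment and 43.6 and 38.5% in AF9 KD cells, a difference of -41.3 percentage points. Their summed level went from 344 ± 4.02 TPM (SD, n = 2) to 138 ± 0.262 TPM (SD, n = 2). In the MLL1 experiment the share was 42.4, 42.2 and 43.7% in control replicates 1, 2 and 3 and 32.5, 41.7 and 36.3% in MLL1 KD replicates. With the GC content offset folds the share in AF9 KD cells was 54.2%, a difference of -28.2 percentage points. The share of MLLT3 was thus lower either way, while its order against MLLT1 in AF9 KD cells was not settled.

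**Figure D4:**
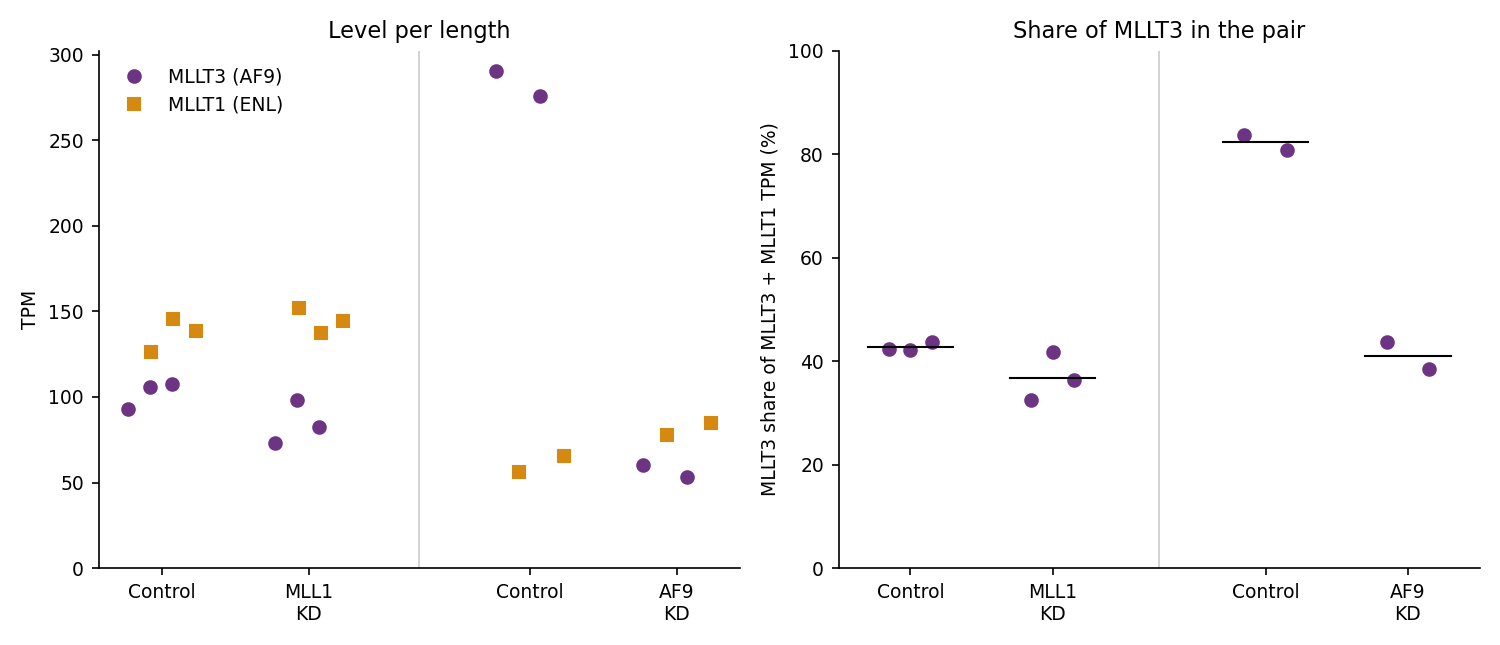
Left, TPM of MLLT3 (circles) and MLLT1 (squares) in each library. Right, share of MLLT3 in the sum of both in percent, with a line at the group mean. MLLT3 exceeds MLLT1 in the control libraries of the AF9 experiment and is below it in the other 8 libraries in these uncorrected values, an order that turns in AF9 KD cells with GC content offsets (59.9 against 50.7 TPM).

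The other pairs of paralogs shifted less. MLLT10 made up 76.4 ± 0.189% (SD, n = 2) of MLLT10 and MLLT6 in control cells and 68.0 ± 4.95% in AF9 KD cells, a difference of -8.34 percentage points. This difference was -11.8 without AF9 KD replicate 1, -4.84 without AF9 KD replicate 2 and -3.16 with the GC content offset folds. AFF1 made up 57.4 ± 1.64% of AFF1 and AFF4 in control cells and 55.3 ± 0.263% in AF9 KD cells. The share of ELL in ELL and ELL2 was 28.5 ± 6.93% and 36.2 ± 7.82%, a difference within the spread of the replicates. In MLL1 KD cells the shares of MLLT10, AFF1 and ELL were 1.27, 0.83 and 3.60 percentage points above those of control cells. No test was made on shares.

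Control cells of the 2 experiments were put on 1 CPM scale with TMM factors over all 10 libraries. MLLT3 was 2.63-fold higher in control cells of the AF9 experiment (546 and 570 CPM) than in those of the MLL1 experiment (185 to 226 CPM), and EAF1 was 1.32-fold higher (74.1 and 74.9 against 53.5 to 58.0 CPM). DOT1L was 3.61-fold higher in control cells of the MLL1 experiment, ELL 2.77-fold, MLLT1 2.37-fold, AFF1 2.31-fold, ELL2 1.89-fold and MLLT6 1.68-fold, and AFF4 stood at 152 against 95.2 CPM. MLLT10 was even, with 151 ± 5.89 CPM (SD, n = 3) and 148 ± 0.668 CPM (SD, n = 2). How many of all tested genes differ as much between these control cells was not counted. Summed levels of the 8 erythroid markers were 35680 to 35726 TPM in control cells of the AF9 experiment, 23955 to 28325 TPM in AF9 KD cells, 3635 to 4433 TPM in control cells of the MLL1 experiment and 3243 to 3728 TPM in MLL1 KD cells. The fetal globin genes HBG1 and HBG2 carried 94.0 to 94.1% of the sum in control cells of the AF9 experiment and 35.4 to 47.5% in those of the MLL1 experiment. Without them the sums were 2103 to 2159 and 2329 to 2404 TPM. Other markers went the other way, as GATA1 was at 542 TPM in control cells and 704 TPM in AF9 KD cells and KLF1 at 257 and 345 TPM. Control cells of the MLL1 experiment had 724 TPM of GATA1. Experiment, sequencing run and state of the cells cannot be told apart here, and the part of the globin and other erythroid genes in the levels of the members was not tested.

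**Figure D5:**
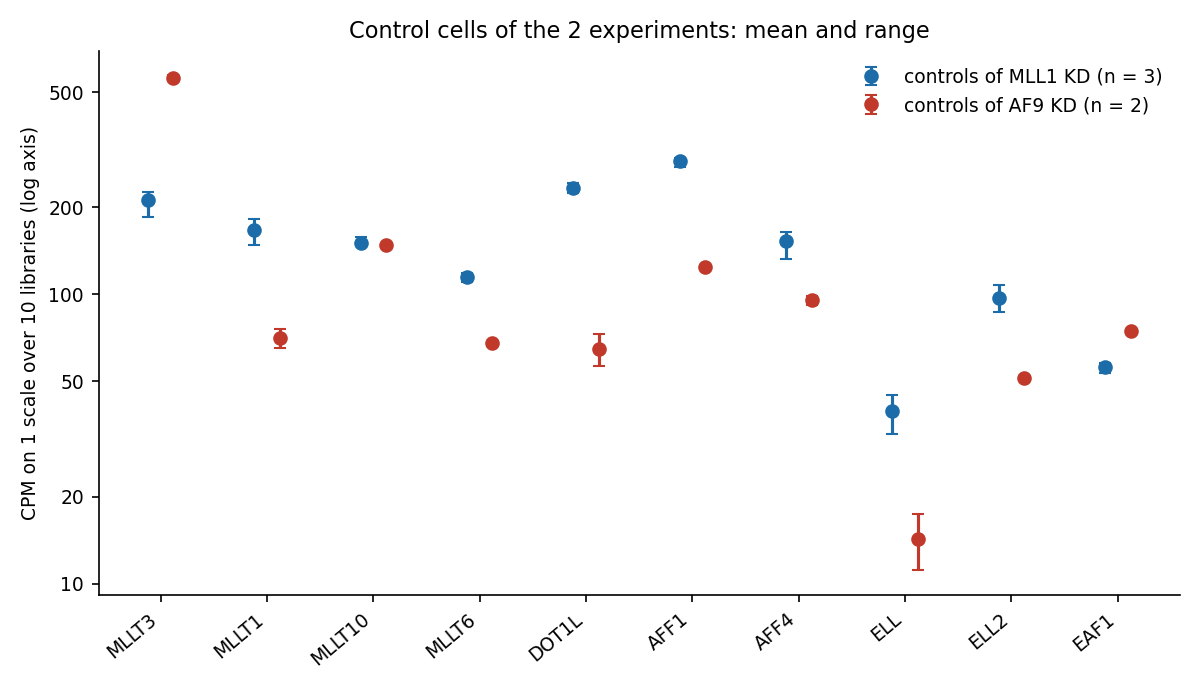
CPM of the 10 genes in control cells of the MLL1 experiment (blue, n = 3) and of the AF9 experiment (red, n = 2) on 1 scale over the 10 libraries, drawn on a log axis, with points at the mean and bars from the lowest to the highest library. MLLT3 and EAF1 are higher in control cells of the AF9 experiment, and 7 of the other genes are lower there.

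Of 19 further genes of these pathways, 18 were tested in each experiment and AFF3, another AF4 family gene, was not. In AF9 KD cells EAF2 and AFF2 fell and CBX8 rose past both thresholds, 3 of 18 where 13.1% of all tested genes were called, a share near that of all genes. The median log2 fold change of the 18 was -0.03, against 0.01 over all tested genes. EAF2, the paralog of EAF1, was at 35.5 and 29.0 CPM in control cells and at 18.4 and 16.6 CPM in AF9 KD cells, 54.2% of control (log2 fold change -0.88, SE 0.14, adjusted p = 0.00065 from edgeR), and it was called under every alternative tried for AF9 KD.

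CBX8, a Polycomb protein that binds AF9 directly, was at 1.96 and 2.77 CPM in control cells and at 4.34 and 5.99 CPM in AF9 KD cells (27 to 80 counts, log2 fold change 1.14, adjusted p = 0.010 from edgeR), and its call was lost without control replicate 1 (log2 fold change 0.90, adjusted p = 0.13 from edgeR). AFF2, a scaffold of the AF4 family, was at 10.4 and 9.99 CPM against 4.72 and 8.01 CPM (log2 fold change -0.68, adjusted p = 0.041 from edgeR). Its call was lost with DESeq2, total counts, GC content offsets and length offsets, and in 3 of the 4 fits without 1 library, those without either control replicate or AF9 KD replicate 1, where the adjusted p values were 0.14, 0.062 and 0.21 (edgeR). The P-TEFb genes CDK9, CCNT1 and CCNT2 and MEPCE, which caps 7SK RNA, passed the adjusted p value but not the fold change, with log2 fold changes of 0.35, -0.34, -0.28 and 0.50. With GC content offsets none of these 4 had an adjusted p value under 0.05.

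In MLL1 KD cells none of the 18 was called, and their log2 fold changes ran from -0.52 for ELL3, another ELL family gene, to 1.00 for AFF2, with a median of 0.09. AFF2 had 14, 22 and 54 counts in control cells and 66, 68 and 69 in MLL1 KD cells, and with the replicate block it was called (log2 fold change 1.08, adjusted p = 0.027 from edgeR). Without the block its value was 0.65 when control replicate 1 was left out and 1.69 when control replicate 3 was, and neither passed. EAF2 was at 15.6, 15.7 and 18.9 CPM in control cells and at 14.0, 13.1 and 11.6 CPM in MLL1 KD cells (log2 fold change -0.38, adjusted p = 0.56 from edgeR), and the difference between its effects in the 2 KDs was -0.52 with an adjusted p value of 0.32 (edgeR).

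The genes whose levels were most like those of MLLT3 across the 10 libraries, by Pearson correlation of log2 CPM centred within each experiment over 12728 other genes, were HIPK1, TAOK1 and CNBP, at 0.98, 0.98 and 0.98. EAF1 came 47th, at 0.94, ahead of the other members, of which AFF1 was next at 0.67. MLLT6, MLLT1 and DOT1L had the lowest values of the members, at -0.76, -0.74 and -0.72. The values share libraries and scaling factors with the fold changes and were not tested, and HIPK1, TAOK1 and CNBP had log2 fold changes of -1.28, -0.61 and -0.32 in AF9 KD cells. MLLT3 changed far more in AF9 KD (log2 fold change -2.43) than in MLL1 KD (-0.28), so libraries of the AF9 experiment weigh most in this ranking. It therefore largely restates which genes fell in AF9 KD cells and adds no separate evidence.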

How the data were processed

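RNA-seq counts from HEL cells were analysed, and the CUT&Tag and PRO-seq samples were not analysed here. The authors filtered reads with fastp (0.13.1), mapped them to hg38 with HISAT2 (2.1.0) and counted reads strand-specifically with featureCounts (1.6.1), as the methods and processing notes give. The annotation behind the symbols is not given in the sources used here. The deposited values are raw counts without normalization, in a table for each experiment, and every per-sample column was used. 92.4% of the symbols were matched to GENCODE version 44 (735 by an older symbol) for exon length and GC content.

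Genes whose TPM averaged at least 1 were tested with edgeR (4.0.16, R 4.3.3, TMM factors, glmQLFit and glmQLFTest, two-sided). Calls took a 1.5-fold change or more with an adjusted p value under 0.05. DESeq2 (1.42.0, the tool of the study), other scalings, filters of at least 1 count or a mean TPM of at least 5, offsets from lowess trends (span 0.3) with GC content or length, the replicate block and leaving out each library were alternatives, and replicates 2 and 3 alone in the MLL1 experiment and shares from GC content offset folds were added after seeing the data. Correlations used log2(CPM + 1). Tables and plots were made with Python 3.11.15, pandas 2.3.3, numpy 2.4.6, scipy 1.17.1 and matplotlib 3.10.9.

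Deviations of same-numbered libraries of the MLL1 experiment correlated at 0.73, 0.43 and 0.45, so the numbers were taken as pairs there in the replicate block. That block was an alternative, and the main fits compared the groups without pairing. Replicates 2 and 3 correlated across numbers at 0.47 and 0.47, so the pairing rests on replicate 1. Tested on simulated counts, the MLL1 fit recovered 70% of genes changed at least 2-fold with 4 false calls among 14393 genes, and the AF9 fit 91.3% with 1 among 13331. The simulated counts varied independently from gene to gene, without the shared shift of replicate 1 or a trend with GC content. These figures therefore do not give the rate of false calls in the data.

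The 10 genes and the pathway list were chosen with earlier results of these data known. Named besides them are KMT2A, pathway genes that were called, reached the ends of the range or passed the adjusted p value alone (the last chosen after their values were seen), and the 3 genes most like MLLT3.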

Additional observations from a re-analysis of the deposited data

Results flagged for a closer look

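The effects of AF9 KD and MLL1 KD differed, by the test of the difference itself, for MLLT3 and EAF1 among the 10 genes. MLLT3, the target of AF9 shRNA #1, had a difference in log2 fold change (AF9 KD minus MLL1 KD) of -2.16. EAF1 had a difference of -0.84 (adjusted p = 0.046 from edgeR), a call that was lost in 9 of the 10 fits without 1 library, with GC content offsets and with total counts, with all AF9 KD libraries below their controls and overlapping libraries in the MLL1 experiment. The experiments had separate control cells in which EAF1 was at 74.1 and 74.9 and at 53.5 to 58.0 CPM on 1 scale.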

How the results depend on the processing

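In MLL1 KD none of the 10 genes was called under any alternative, and in AF9 KD MLLT3 and EAF1 were called under all of them, with 4 genes passing where no fold change threshold was set and 2 to 3 with 1 library left out. For the difference between the KDs 1 of the 10 genes was called with total counts, 1 without a filter beyond 1 count, 1 with GC content offsets, and 0 to 2 with 1 library left out. Of the pathway genes 3 were called in AF9 KD, 1 at a mean TPM of at least 5, where fewer genes are tested, 7 without the fold change threshold and 1 to 3 with 1 library left out. In AF9 KD 1 pathway gene was called higher and 1 lower with GC content offsets, and 2 higher and 1 lower with total counts. In MLL1 KD 1 pathway gene (AFF2) was called with the replicate block and 1 with the block and GC content offsets. For the losses not explained by the alternative's construction, the cause was not tested.

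The AF9 KD shares moved with GC content offset folds, an alternative added after seeing the data. The differences were then -28.2 percentage points for MLLT3, -3.16 for MLLT10, -3.47 for AFF1 and -0.54 for ELL. The sign turned for ELL, whose share without the offsets was 28.5% in control cells and 36.2% in AF9 KD cells. Signs turned for genes that were not called. In MLL1 KD the log2 fold change of MLLT1 was -0.020 from replicates 2 and 3 alone and -0.0073 to 0.13 with 1 library left out, and that of MLLT6 was -0.0085 with length offsets and -0.044 to 0.085 with 1 library left out. In AF9 KD GC content offsets, without and with the block, gave -0.26 and -0.26 for MLLT1, -0.21 and -0.21 for DOT1L, 0.034 and 0.034 for AFF4 and 0.18 and 0.17 for ELL2. ELL2 was also at 0.0026 with DESeq2, 0.0021 with its size factors, 0.087 with total counts, 0.022 at a mean TPM of at least 5 and -0.32 to 0.27 with 1 library left out. For the difference, GC content offsets gave -0.33 for MLLT1, -0.27 for DOT1L and -0.020 for ELL, and ELL2 ran from -0.24 to 0.36 with 1 library left out.

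In the AF9 experiment deviations of same-numbered libraries correlated at 0.24. With 2 libraries in a group both pairs give the same value by construction, so whether the numbers mark pairs was not settled. The replicate block there called 14.7% of genes, against 13.1% without it, and 2 of the 10 genes. With it 40.9% of genes passed the adjusted p value alone, against 29.0%, and 7 of the 10 genes did, against 4. In the MLL1 experiment the block called 4.72% of genes, against 0.0625%, and it changed no call among the 10 genes. Of the genes called in AF9 KD 61.3% were higher, against 76.4% with total counts, which shift the median log2 fold change of all genes from 0.01 to 0.10, and 46.6% with GC content offsets. With 1 library left out of a pair, the lone library is assumed to vary like the other group. Each KD rests on 1 shRNA and 2 or 3 libraries, which limits what small differences can show.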
